A study of Mus musculus with 6 samples.

Results

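Cadherins are the calcium-dependent adhesion proteins that hold neighbouring cells together. The cadherin genes chosen, by gene symbol, were Cdh1, Cdh2, Cdh3, Cdh4, Cdh5, Cdh6, Cdh10, Cdh11, Cdh13 and Cdh16. Of these 10, 9 were found among the 19730 rows of the expression table. Cdh4 (R-cadherin) matched no row and is not analysed here. RNA-Seq was performed on primary mouse mesangial cells, which hold up the capillaries of the glomerulus and can contract, in 3 Control libraries and 3 libraries of cells given TGF-β1 at 10 ng/ml for 72 h. All cells of both groups were at passage 3 to 6 and grew in medium with high glucose (25.5 mM) and 20% foetal bovine serum, so neither group shows cells in normal glucose. The labels give no strain, sex or age of the mice, and they do not say whether the libraries of a group came from separate cultures, so the p-values measure only the spread between these samples. Values are FPKM, the number of fragments of a transcript per kilobase of its length and per M (mega) of mapped fragments, and levels of different genes are therefore set side by side per length.

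The libraries held 10.13 to 11.05 M fragments, as read from the steps between low FPKM values. Pearson's r across tested rows lay between 0.876 and 0.940 for libraries of one group and between 0.818 and 0.853 for libraries of different groups. The labelled cell type was set against 12 mesangial and pericyte markers. Vim, Acta2, Pdgfrb, Mcam, Serpine2 and Gata3 had a mean of at least 1 FPKM, whereas Pdgfra, Itga8, Des, Thy1 and Rgs5 stayed under 1 FPKM in every library. The 12 summed to 2903 to 3435 FPKM in Control libraries and 7303 to 7646 FPKM with TGF-β1, nearly all of it Vim (mean 2191 and 3436 FPKM) and Acta2 (997 and 3887 FPKM). The markers did not all move together. Among those tested, 4 rose and 1 fell, beside 24.5% and 23.6% of all tested rows. Pdgfrb fell (37.5 to 29.2 FPKM, limma adjusted p = 0.0396) and Gata3 was not called (1.76 and 1.03 FPKM). Cspg4, under the filter, rose from 0.0735 to 1.21 FPKM (limma adjusted p = 0.000951 in the fit without a filter). Of 5 podocyte markers, Nphs1 stayed under 1 FPKM in every library and the other 4 fell, beside 23.6% of all tested rows. The 5 summed to 27.8 to 32.2 FPKM in Control libraries and 14.9 to 15.5 FPKM with TGF-β1. Kidney tubule transcription factors were present too, with Pax8 at 108 to 137 FPKM and Pax2 at 27.7 to 31.6 FPKM in Control libraries. In bulk RNA, fewer cells of a type and less RNA per cell cannot be told apart, and this holds for each difference given here.

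Classical cadherins bind the same or a similar cadherin on the next cell through their outer repeats, and bind β-catenin and p120 catenin through their inner tail. β-catenin in turn carries α-catenin, which links the junction to actin. Cdh1 (E-cadherin), Cdh2 (N-cadherin), Cdh3 (P-cadherin) and Cdh4 belong to the classical type I group. Cdh5 (VE-cadherin, of endothelium), Cdh6 (K-cadherin, of developing kidney), Cdh10 (best known from the nervous system) and Cdh11 (OB-cadherin, of mesenchyme and osteoblasts) belong to type II. Cdh13 (T-cadherin) has no inner tail and is held by a lipid anchor, and Cdh16 (kidney-specific or Ksp-cadherin, of the tubule epithelium) has only a short one. In fibrosis, TGF-β1 is well known for lowering E-cadherin in epithelial cells and for its effect on mesenchymal cadherins.

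The 9 genes lie on 3 chromosomes of the mouse genome build mm9, and 6 of them are on chromosome 8. In order along that chromosome these are Cdh11 (chr8:105156895-105309011, minus strand), Cdh5 (chr8:106625525-106668402, plus), Cdh16 (chr8:107125813-107148296, minus), Cdh3 (chr8:109034791-109080808, plus), Cdh1 (chr8:109127251-109194146, plus) and Cdh13 (chr8:120807633-121848821, plus). Cdh3 and Cdh1 are neighbours 46.4 kb apart, and 457.4 kb separates Cdh5 from Cdh16. Cdh6 (chr15:12963955-13103394, minus) and Cdh10 (chr15:18748702-18943990, plus) share chromosome 15. The rows are those of protein-coding transcripts of 2632 nt (Cdh6) to 4843 nt (Cdh2), and all but Cdh5, Cdh6 and Cdh11 have further annotated transcripts, whose share in these values is not stated. Cdh2 overlaps Gm15485 on the opposite strand, Cdh11 overlaps AC141869.1 on its own strand and Cdh13 overlaps the small RNA genes U6 and SNORA17. Since the use of read strand is not stated, the values of these 3 genes may include reads of the overlapping gene.

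Promoter sequence was at hand for only 2 of the 10 cadherins, Cdh10 and Cdh6, both of type II and on chromosome 15. Cdh10 rose with treatment and Cdh6 was not called changed. The 250 bases before the start of each are shown (RefSeq sequence, build GRCm38.p6). Cdh10 is chr15:18820079-18820328 on the plus strand and Cdh6 is chr15:13173676-13173925 on the minus strand, both 5′ to 3′ along the gene. The gene positions above are of another build. Whether these starts are those of the transcripts in the expression rows was not checked. Capitals mark the 1 match found to the motifs searched.
Cdh10: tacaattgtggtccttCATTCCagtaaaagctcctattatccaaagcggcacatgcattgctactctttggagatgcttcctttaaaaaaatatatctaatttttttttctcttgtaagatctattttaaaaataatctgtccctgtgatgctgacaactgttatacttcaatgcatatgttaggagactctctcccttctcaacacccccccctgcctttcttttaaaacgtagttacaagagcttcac
Cdh6: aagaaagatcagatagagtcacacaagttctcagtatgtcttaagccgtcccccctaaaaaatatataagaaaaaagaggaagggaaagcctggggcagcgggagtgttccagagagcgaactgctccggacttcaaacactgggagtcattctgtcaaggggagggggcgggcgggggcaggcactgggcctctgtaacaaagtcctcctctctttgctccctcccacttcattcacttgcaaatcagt

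The Cdh10 window was AT-rich. It held 36.8% G and C with 2 CpG dinucleotides, which placed it at the 6.74th percentile of G and C content among the 32851 promoter windows of the table. The Cdh6 window held 51.2% with 6 CpG dinucleotides and lay at the 45.5th percentile. The motifs searched, on both strands, were CAGAC (the SMAD box, in 42.2% of all windows), CAGGTG (the E2 box bound by Snail and ZEB repressors, in 17.2%), TGANTCA (AP-1, in 6.75%), GGAATG (TEAD, in 12.6%) and TATAAA (the TATA box, in 12.4%). The GGAATG motif was found once, in the Cdh10 window, where it is read on the other strand as the capitals CATTCC. None of the other motifs was found in either window, which says only that these letters are not in these 250 bases.

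A microRNA binds 3′ untranslated regions through bases 2 to 8, its seed. A list of predicted targets given with the study pairs miR-27a-3p with Cdh11. The study kept only pairs with opposite changes in these data, so the pairing is not independent of the rise of Cdh11. Its predictions were not limited to 3′ untranslated regions. The sequence of miR-27a-3p (RefSeq, GRCm38.p6 chr8:84208727-84208747, plus strand) is shown with the seed in capitals. Below it are the stretches that match this seed in Cdh11 (mm9 chr8:105158038-105158059, minus) and in Cdh3 (mm9 chr8:109079481-109079502, plus), where the capitals mark the match.
miR-27a-3p: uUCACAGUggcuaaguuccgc
Cdh11: tcaaagtggaaaatACTGTGAa
Cdh3: gaccagaaggctggACTGTGAg

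Matches to ACTGTGA were not specific to Cdh11. One was found in each of Cdh11, Cdh3, Cdh1 and Cdh5, and none in Cdh2, Cdh10, Cdh13 or Cdh16, while the Cdh6 transcript has no annotated 3′ untranslated region. Among 3′ untranslated regions at least as long as that of Cdh11 (1319 nt), 16.6% held a match within that length. Among those at least as long as that of Cdh3 (1442 nt), 17.8% did so within that length. Cdh11 rose and Cdh3 fell, as given below, and small RNA was not analysed here.

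Of the 9 genes, 7 had a mean of at least 1 FPKM and were tested with the other rows (11898 in all) by limma on log2(FPKM + 1). Cdh10 and Cdh11 rose, Cdh2, Cdh3 and Cdh16 fell, and Cdh6 and Cdh13 were not called changed at an adjusted p of 0.05. Changes were common in these libraries, since 48.1% of all tested rows were called, 24.5% upward and 23.6% downward. The 5 called cadherins were also the ones whose groups did not overlap, which 59.4% of all tested rows did not. The median log2 change of the 7 was -0.37, beside -0.02 over all rows. The number called says little about cadherins as a family. By size of change among tested rows, Cdh10 ranked 28th among all rises and Cdh16 ranked 47th among all falls. Cdh10 passed the filter only through its TGF-β1 values, and the cadherins were chosen with earlier results of these data known. These ranks are therefore description only.

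**Figure D1:**
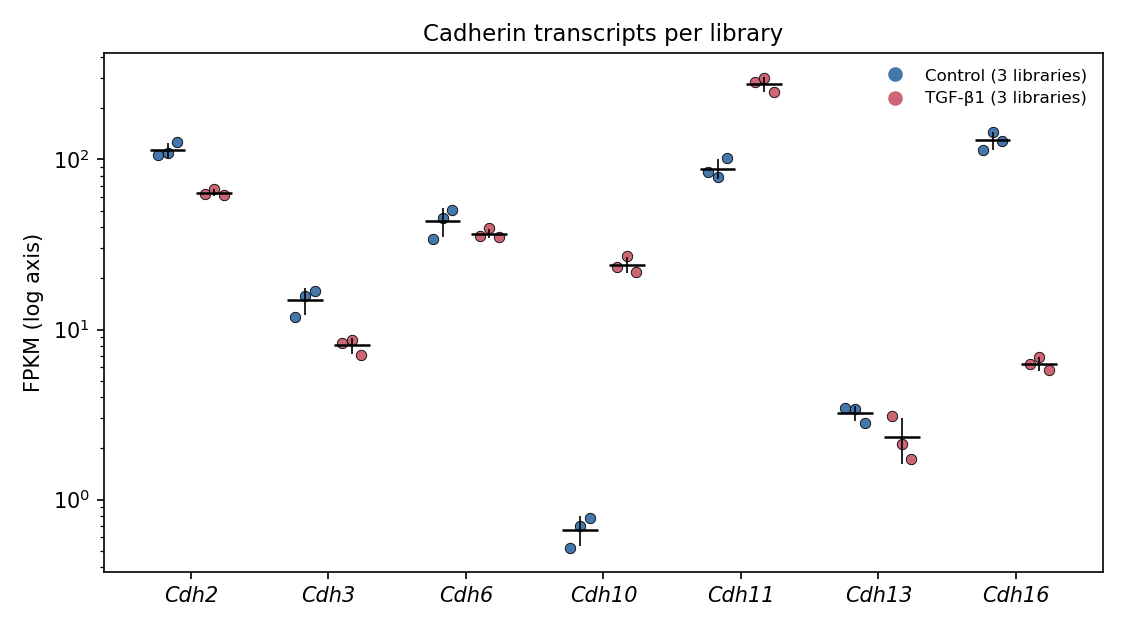
FPKM (log axis) of the 7 cadherins with a mean of at least 1 FPKM, with each point 1 of the 3 Control (blue) or 3 TGF-β1 (red) libraries, horizontal lines for group means and vertical lines for 1 SD. Cdh10 moved from under 1 to over 20 FPKM and Cdh16 from over 100 to under 7 FPKM, whereas the points of Cdh6 and Cdh13 overlap between groups.

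Among type I cadherins, Cdh2, the N-cadherin of mesenchymal and neural cells, was abundant and fell. It was at 106, 109 and 127 FPKM in Control libraries and at 62.8, 67.1 and 61.6 FPKM with TGF-β1. Every treated library was below every Control library. Its mean fell from 114 ± 11.2 to 63.8 ± 2.87 FPKM (SD, n = 3 per group), a level 1.79-fold lower. In limma the log2 change was -0.83 (SE 0.0938, adjusted p = 0.000781).

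Cdh3, the P-cadherin of placenta and basal epithelia, fell by a like amount from a far lower level. It was at 11.9, 15.7 and 16.9 FPKM in Control libraries and at 8.37, 8.71 and 7.09 FPKM with TGF-β1, and the groups did not overlap. The log2 change was -0.80 (SE 0.149, limma adjusted p = 0.00582), 1.84-fold lower between the means of 14.8 ± 2.63 and 8.06 ± 0.855 FPKM (SD, n = 3).

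Cdh1, the E-cadherin of epithelia, was next to undetected in both groups. It was at 0, 0.0214 and 0.0309 FPKM in Control libraries and at 0.0216, 0.0467 and 0.123 FPKM with TGF-β1. These values stand for about 0, 1 and 1.4 fragments and about 1, 2 and 5.6 fragments, where 3 fragments correspond to 0.0642 to 0.0700 FPKM. Without the filter on low values, in which 30.5% of 19730 rows were called, Cdh1 was not (log2 change 0.06, 95% interval -0.05 to 0.18, limma adjusted p = 0.393). At this depth a fall of E-cadherin RNA was not detectable, since the Control libraries held next to none. Its neighbour Cdh3 was read from 11.9 FPKM upward in the same Control libraries. Of 11 other epithelial markers, Epcam, Cldn3, Ocln, Esrp1 and Grhl2 matched no row, and Krt8 and Cldn7 stayed under 1 FPKM in every library. The other 4 were low but called, all but Cldn4 in the fit without a filter. Cldn4 rose from 0.189 ± 0.118 to 4.85 ± 1.09 FPKM (SD, n = 3, limma adjusted p = 0.000189), Krt18 from 0.279 to 1.57 FPKM (0.00143) and Krt19 from 0.156 to 1.06 FPKM (0.00563), while Krt7 fell from 1.47 to 0.125 FPKM (0.000606). The sum over the 6 with a row was 1.96 to 2.41 FPKM in Control libraries and 6.71 to 8.71 FPKM with TGF-β1.

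The type II cadherins held both of the genes that rose. Cdh11, the cadherin of mesenchyme, was already abundant and became the most abundant cadherin. It was at 84.6, 78.8 and 102 FPKM in Control libraries and at 286, 303 and 248 FPKM with TGF-β1. Every treated library was far above every Control library. Its mean rose 3.15-fold, from 88.5 ± 12.1 to 279 ± 27.9 FPKM (SD, n = 3). In limma the log2 change was 1.65 (SE 0.129, adjusted p = 0.000189).

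Cdh10 had the largest ratio between group means of the cadherins tested. It was at 0.517, 0.700 and 0.780 FPKM in Control libraries, about 17, 23 and 25 fragments. With TGF-β1 it reached 23.3, 27.1 and 21.9 FPKM, about 758.9, 815.2 and 706.3 fragments. The Control level was thus low but measured, and the groups were far apart. The ratio of the means, 0.665 ± 0.135 and 24.1 ± 2.66 FPKM (SD, n = 3), was 36.2. In limma the log2 change was 3.91 (SE 0.116, adjusted p = 7.63e-06), less than the ratio of the means implies because 1 was added to each FPKM before the log was taken. Among tested rows its level moved from the 1.26th to the 68.4th percentile. The low Control percentile follows from the filter, which Cdh10 passed only through its TGF-β1 values. The 7832 rows under the filter are left out of these percentiles.

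Cdh6, the K-cadherin of the nephron in development, was well expressed in both groups and was not called changed. It was at 34.0, 45.5 and 50.5 FPKM in Control libraries and at 35.5, 39.4 and 35.2 FPKM with TGF-β1. The lowest library of all was Control replicate 1, while the other Control libraries lay above all treated ones. The log2 change was -0.22 (95% interval -0.59 to 0.15, limma adjusted p = 0.284), and without Control replicate 1 it was -0.38 and called (adjusted p = 0.0319). A modest fall of Cdh6 is therefore not settled by these libraries.

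Cdh5, the VE-cadherin of endothelium, was listed at 0 in all 3 Control libraries and in TGF-β1 replicate 2, and at 0.0241 and 0.0244 FPKM in TGF-β1 replicates 1 and 3. The non-zero values are those of about 1 fragment each. A count of 0 allows up to 3 fragments, or 0.0717 to 0.0782 FPKM across the libraries, and this limit covers counting error only. Of 9 other endothelial markers, 7 had a row and all of these stayed under 1 FPKM in every library. Cdh5 was not called in the fit without a filter (log2 change 0.02, limma adjusted p = 0.625), and no fold is given.

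Among the cadherins without a full inner tail, Cdh16 showed the largest fall. It was at 114, 146 and 129 FPKM in Control libraries and at 6.28, 6.87 and 5.75 FPKM with TGF-β1, about 3246.5 to 4161.3 fragments against 160.4 to 179.6. The groups were far apart, and the spread within each was small beside the gap. The mean fell from 129.7 ± 16.1 to 6.30 ± 0.564 FPKM (SD, n = 3), 20.6-fold lower. In limma the log2 change was -4.16 (SE 0.116, adjusted p = 6.13e-06). A transcript named for the kidney tubule was thus the most abundant of the cadherins, by mean, in untreated cells that were labelled mesangial.

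Cdh16 did not fall alone among tubule genes. Of 8 other kidney tubule markers, 6 had a row (Umod and Slc34a1 did not), and all 3 with a mean of at least 1 FPKM fell. Over all tested rows, 23.6% fell. Pax8, a transcription factor of the developing and adult tubule, was at 108, 137 and 115 FPKM in Control libraries and at 29.9, 25.8 and 25.7 FPKM with TGF-β1 (log2 change -2.10, limma adjusted p = 5.77e-05). Pax2, another such factor, was at 28.8, 27.7 and 31.6 FPKM and then at 9.97, 9.76 and 11.4 FPKM (log2 change -1.42, adjusted p = 1e-04). The third was the water channel Aqp1 (log2 change -3.28, limma adjusted p = 2.18e-05), which dropped from 10.4 ± 1.62 to 0.169 ± 0.0855 FPKM (SD, n = 3). Aqp1 passed the filter only through its Control values. The other 3 with a row, genes of tubule uptake and salt transport, were low and did not all fall. In the limma fit without a filter, Lrp2 fell from 1.43 to 0.230 FPKM (adjusted p = 0.00369). Cubn rose from 0.636 to 1.28 FPKM (0.00774) and Slc12a1 from 0.0615 to 0.377 FPKM (0.0125). Summed over the 6 markers, with Cdh16 left out, the level was 149 to 179.9 FPKM in Control libraries and 37.8 to 41.9 FPKM with TGF-β1. The part of a change in cell makeup in the fall of Cdh16 was not tested.

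**Figure D2:**
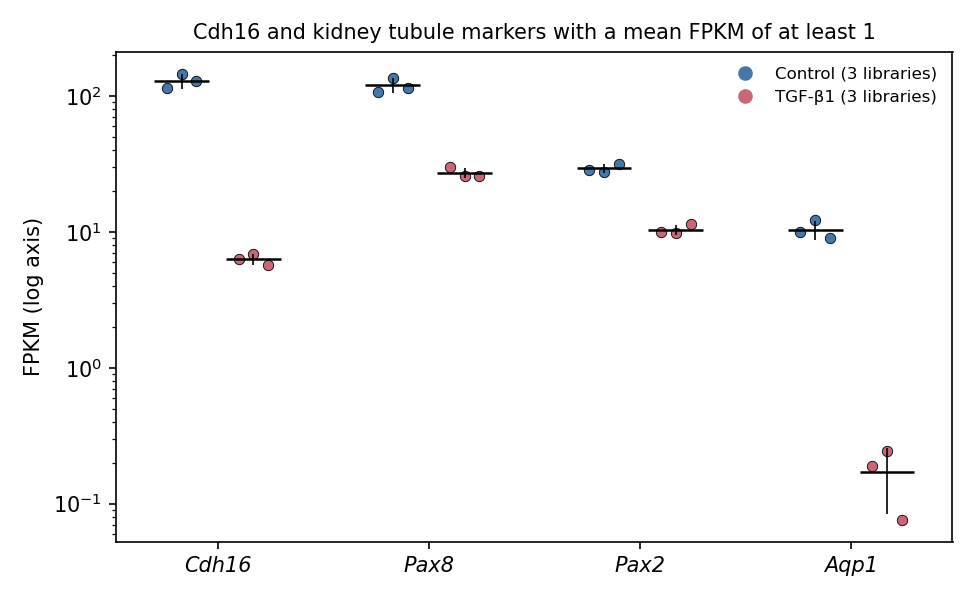
FPKM (log axis) of Cdh16 and of the 3 kidney tubule markers with a mean of at least 1 FPKM, with each point 1 of the 3 Control (blue) or 3 TGF-β1 (red) libraries, horizontal lines for group means and vertical lines for 1 SD. The groups are separate for all 4 genes, and the gap is widest for Aqp1 and Cdh16.

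Cdh13, the lipid-anchored T-cadherin, was low and was not called changed. It was at 3.45, 3.39 and 2.84 FPKM in Control libraries and at 3.10, 2.13 and 1.73 FPKM with TGF-β1, and TGF-β1 replicate 1 lay inside the Control range. The log2 change was -0.37 (95% interval -0.78 to 0.05, limma adjusted p = 0.126). Without TGF-β1 replicate 1 the change was -0.53 and called (adjusted p = 0.0355), so the call rests on that library. Its values rest on about 67.2 to 136.8 fragments per library.

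The summed level of the 9 genes stayed within one range while its makeup changed. The sum was 355, 399 and 429 FPKM in Control libraries and 425, 454 and 381 FPKM with TGF-β1, and these ranges overlap. In Control libraries Cdh16 made up 32.9% of the sum, Cdh2 29.0%, Cdh11 22.4% and Cdh6 10.9%. The ranges of Cdh16 and Cdh2 overlapped, so their order is not settled, and Cdh1 and Cdh5 overlapped near 0, while the other neighbours in the order did not overlap. With TGF-β1, Cdh11 alone made up 66.3%, followed by Cdh2 at 15.2%, Cdh6 at 8.75% and Cdh10 at 5.73%. Cdh3 made up 3.74% and then 1.92%, and Cdh16 ended at 1.5%, below Cdh3.

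**Figure D3:**
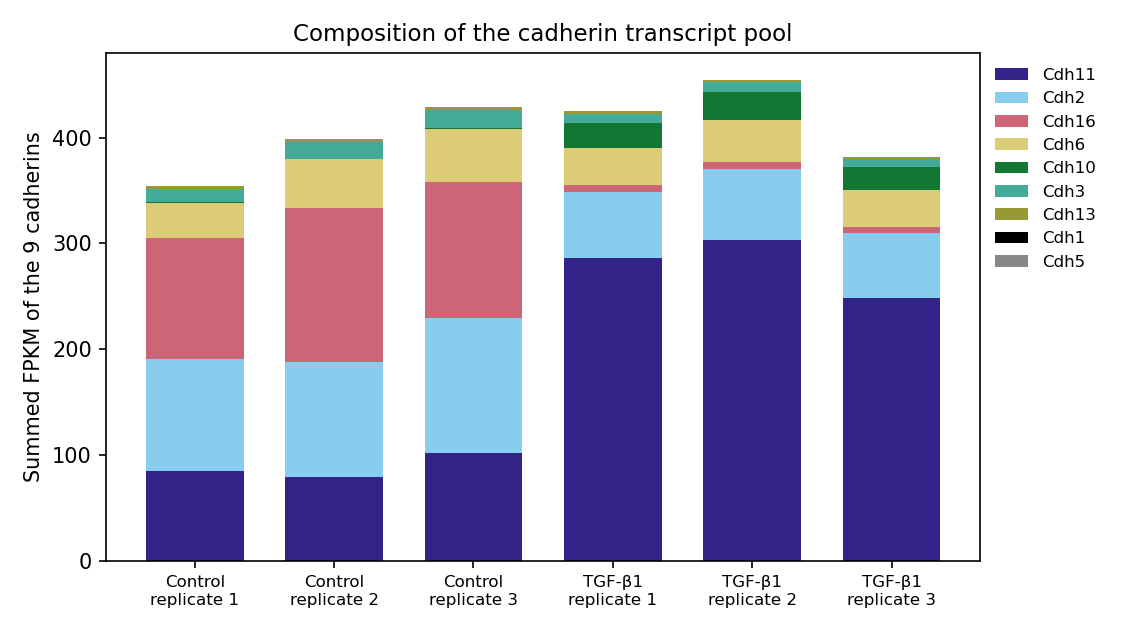
Summed FPKM of the 9 cadherins in each of the 6 libraries, with bars stacked by gene from 0. The height is 355 to 454 FPKM in every library, while Cdh16 and Cdh2 make up most of the Control bars and Cdh11 most of the TGF-β1 bars.

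Ratios within a library show the same shift and do not depend on scaling between libraries. The ratio of Cdh11 to Cdh2 was 0.795, 0.721 and 0.804 in Control libraries and 4.54, 4.51 and 4.02 with TGF-β1. The ratio of Cdh16 to Cdh2 was 1.07, 1.34 and 1.02 in Control libraries and 0.1, 0.103 and 0.0933 with TGF-β1. Both ratios were tightly grouped among libraries of one treatment and far apart between treatments.

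For the cadherin with the largest rise and the one with the largest fall, the 3 rows with the nearest pattern over the 6 libraries were found by Euclidean distance on log2(FPKM + 1). Nearest to Cdh10 were Trib3 (distance 0.611), a pseudokinase of the stress response, Aldh1a3 (0.889), which makes retinoic acid, and Col5a3 (1.02), a fibrillar collagen chain. Each was under 1 FPKM in every Control library, and they averaged 25.2 ± 4.38, 33.1 ± 0.701 and 16.5 ± 1.35 FPKM with TGF-β1 (SD, n = 3). Nearest to Cdh16 were Wnk4 (0.459), a kinase that regulates salt transport in the distal tubule, Adamts1 (0.805), a secreted metalloprotease, and Cd14 (1.01), a receptor for bacterial lipopolysaccharide. They averaged 125 ± 8.54, 147 ± 14.5 and 94.3 ± 13.6 FPKM in Control libraries and 6.84 ± 1.60, 8.56 ± 0.161 and 7.71 ± 0.819 FPKM with TGF-β1. Cd14 is also a macrophage marker, and of the other 5 of that list Csf1r fell from 6.27 ± 0.979 to 0.411 ± 0.156 FPKM, Cd68 was at 2.79 and 2.22 FPKM, Ptprc and Lyz2 stayed under 1 FPKM in every library and Emr1 matched no row.

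Catenins bind the inner tail of classical cadherins. Of 14 catenins and armadillo partners, 11 were tested, 7 rose, 3 fell and 1 was not called, with a median log2 change of 0.50. Over all tested rows, 24.5% rose, 23.6% fell and the median was -0.02. Ctnnb1 (β-catenin) was at 104, 136 and 144 FPKM in Control libraries and at 196, 213 and 196 FPKM with TGF-β1 (log2 change 0.66, SE 0.137, limma adjusted p = 0.00865). Jup (plakoglobin, which can take the place of β-catenin) rose more, from 65.3 ± 5.05 to 163 ± 2.23 FPKM (log2 change 1.31, adjusted p = 8.32e-05). Ctnnd1 (p120 catenin, which keeps cadherins at the membrane) rose from 42.0 ± 1.71 to 68.0 ± 7.19 FPKM (log2 change 0.68, adjusted p = 0.00191). Ctnna1 (α-catenin) rose least, by 0.34 on the log2 scale (adjusted p = 0.0178), and its call was lost without Control replicate 2 (adjusted p = 0.0546) or without TGF-β1 replicate 1 (0.0717).

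Plakophilins, the armadillo proteins of desmosomes, did not all go one way. Pkp1 went from 0.193 ± 0.0840 to 4.91 ± 0.262 FPKM (limma log2 change 2.31, adjusted p = 3.78e-05) and Pkp2 from 13.1 to 25.3 FPKM (0.90), whereas Pkp4 fell from 49.8 to 27.1 FPKM (-0.86). The other falls were those of Ctnnal1 (α-catulin), from 19.0 ± 1.58 to 6.51 ± 0.930 FPKM (log2 change -1.42, adjusted p = 0.000248), and Arvcf, a relative of p120 catenin, from 6.37 to 2.20 FPKM (-1.21). Of 13 other desmosomal genes, 10 were under the filter and 1 was tested, the membrane protein Perp, which rose (30.4 and 65.7 FPKM, log2 change 1.10, adjusted p = 0.000589). Without the filter, 3 more were called and all fell, from levels under 1 FPKM on average. In that fit 30.5% of all 19730 rows were called, so the count says little about desmosomal genes. The 3 were the linker periplakin, Ppl (0.877 to 0.0776 FPKM, limma adjusted p = 0.00122), and the desmosomal cadherins Dsg2 (0.295 to 0.0393 FPKM, 0.0163) and Dsg1b (0.0888 FPKM, then listed at 0 in every treated library, 0.0366). The values of Dsg2 and Dsg1b are near the floor.

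**Figure D4:**
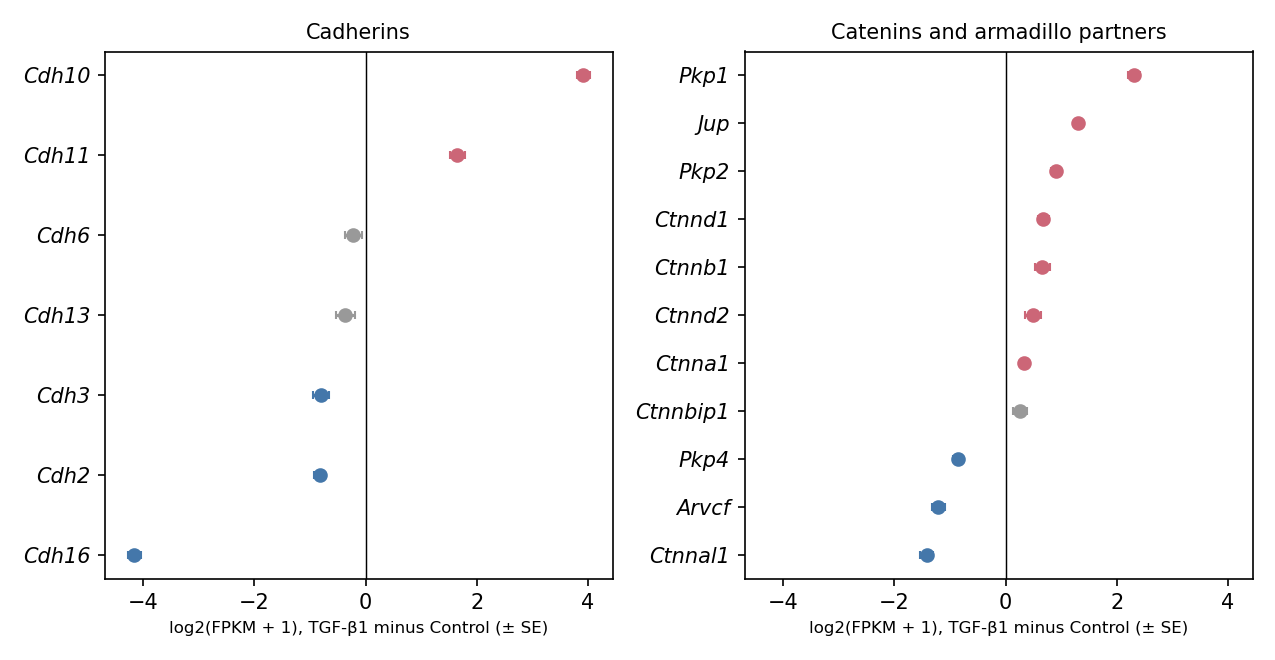
Change on the log2(FPKM + 1) scale (TGF-β1 minus Control, n = 3 each) of the 7 tested cadherins (left) and the 11 tested catenins and armadillo partners (right), with bars of 1 standard error from limma. Red points rose, blue points fell and grey points were not called, and Cdh10 at 3.91 and Cdh16 at -4.16 lie farthest from 0.

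Genes that link the junction to actin, with the nectins, were divided. Of 22 listed, 19 were tested, 7 rose, 6 fell and 6 were not called, with a median log2 change of -0.04, near that of all rows. The share called over all tested rows was 48.1%, with 24.5% upward and 23.6% downward. The actin cross-linker Actn1 rose from 85.5 ± 3.22 to 309.5 ± 11 FPKM (limma log2 change 1.84, adjusted p = 1.8e-05) and vinculin, Vcl, from 13.2 ± 3.35 to 29.0 ± 1.21 FPKM (1.11, adjusted p = 0.00277). Pvrl1 (nectin-1) rose from 3.56 to 9.98 FPKM. Mllt4 (afadin, which ties nectins to actin) fell from 43.5 to 21.0 FPKM (-1.01), as did Shroom3 (24.3 to 7.95 FPKM), which drives apical constriction, and Afap1 (40.0 to 21.3 FPKM).

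Cadherins outside the 10 were mostly low or without a row. Of 13 others of the Cdh series, 7 had a row and 2 were tested. Cdh18, a type II cadherin, rose from 1.61 ± 0.137 to 3.13 ± 0.261 FPKM (limma log2 change 0.66, adjusted p = 0.00344), and Cdh24 was at 0.938 and 1.24 FPKM (adjusted p = 0.386). Cdh23, a long cadherin of hair cell tip links that was singled out after its values were seen, was under the filter at 0.0174, 0.0260 and 0.107 FPKM in Control libraries and at 1.49, 0.874 and 2.08 FPKM with TGF-β1 (log2 change 1.21, adjusted p = 0.00459 without the filter).

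Of 29 protocadherins and large cadherins, 10 were tested, 2 rose and 4 fell, with a median log2 change of -0.38. For all tested rows, 24.5% rose and 23.6% fell, with a median of -0.02. Pcdh1 rose from 4.95 to 16.5 FPKM (limma log2 change 1.55, adjusted p = 0.000212). Pcdh9 (14.3 to 5.90 FPKM, -1.15) and the calsyntenins Clstn1 (31.1 to 17.9 FPKM, -0.76) and Clstn2 (9.73 to 5.39 FPKM, -0.75) fell. The call of Pcdh7 (6.98 to 8.84 FPKM, log2 change 0.30, adjusted p = 0.0498) was lost when any one of the 6 libraries was left out, with adjusted p of 0.0534 to 0.134.

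Of 12 tested proteases and trafficking genes that cleave or turn over cadherins, 1 rose, 2 fell and 9 were not called, beside 48.1% called over all tested rows, with a median log2 change of -0.18. The kinase Src, which phosphorylates junction proteins, rose from 16.9 to 29.8 FPKM (limma log2 change 0.79, adjusted p = 0.000562). Arf6, a GTPase of endocytosis, fell by 0.45 and the phosphatase Ptpn1 by 0.44 on the log2 scale.

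The repressors that act on the E-cadherin gene through E2 boxes were read although Cdh1 itself was near 0 in both groups. Of 9 listed, 8 were tested, 3 rose, 1 fell and 4 were not called, with a median log2 change of -0.08. The share called was near the 48.1% of all tested rows, so the count says little about these repressors. Snai1 (Snail) was at 0.507, 0.254 and 0.652 FPKM in Control libraries and at 4.10, 1.95 and 5.39 FPKM with TGF-β1, 8.09-fold higher between means (log2 change 1.65, SE 0.298, limma adjusted p = 0.00516). Zeb2 rose from 4.92 to 9.36 FPKM (0.81, adjusted p = 0.00114) and Snai2 (Slug) from 24.4 to 34.2 FPKM (0.48, adjusted p = 0.00614). Twist2 went the other way, from 84.3 ± 20.2 to 33.9 ± 11.8 FPKM (-1.33, SE 0.302, adjusted p = 0.0123).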

How the data were processed

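RNA-Seq was performed on 3 Control and 3 TGF-β1 libraries, grouped by the labels. The authors dropped reads of low quality, aligned the others to mm9 with TopHat (TopHat2 2.0.11 in the submitters' processing notes) and deposited FPKM values estimated with Cufflinks. Their differential test (DESeq) used counts, which were not used here. The sources do not say if a row covers all transcripts of a gene. The test was limma 3.58.1 under R 4.3.3 (lmFit, eBayes with trend, two-sided, Benjamini-Hochberg over all rows) on log2(FPKM + 1) where the mean FPKM was at least 1. Genes below this came from the same fit without the filter. Adjusted p under 0.05 was called changed. Python 3.11.15 and pandas 2.3.3 were used. The fit was also run on simulated data with far fewer changed rows than were called here. That run does not test the calls given.

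Depth came from steps in low FPKM values of genes with 1 transcript, of which 99.3% to 99.8% lay within 0.1 of a whole fragment at an assumed length of 200 nt. Fragment numbers are therefore approximate, and no count model was fitted. Gene positions came from GENCODE M1 (mm9), where 19699 of 19730 rows were found. RefSeq promoters were matched for 2 of the 10 cadherins.

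The cadherins, the partner lists and the marker lists were chosen with earlier results of these data known. Some listed genes are not reported here and were left out of counts and sums. Genes named were all cadherins, the 3 largest called rises and falls of each partner list, and Ctnnb1, Ctnna1, Ctnnd1 and Jup. Alternatives were another pseudocount, other filters and scalings, a replicate block, no trend and leaving out libraries.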

Additional observations from a re-analysis of the deposited data

How the results depend on the processing

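The calls of Cdh2, Cdh3, Cdh10, Cdh11 and Cdh16 kept their direction and stayed past the threshold under all 14 alternatives, although Cdh3 reached an adjusted p of 0.049 with replicates 1 and 3 only. Leaving out 1 library in turn gave log2 changes of -0.38 to -0.10 for Cdh6 and of -0.53 to -0.24 for Cdh13, each called in 1 such fit. Cdh13 has no value under the stricter filter (3 FPKM). Of the other cadherins of the Cdh series, 2 were changed with no filter and 0 under the stricter one, where fewer rows were tested. Desmosomal genes changed numbered 4 with no filter, the 3 added ones all falling. With no filter, 30.5% of all rows were called. Deviations of same-numbered libraries correlated at 0.0921, 0.232 and 0.0853, and those of other pairs at -0.194 to 0.117. These values do not settle whether same-numbered libraries share an effect. The labels do not call the numbers pairs, so the main fit did not use them, and a replicate block was fitted as an alternative. The replicate block left 5 cadherins changed and 5391 of all rows (5721 without it), raised cleavage and turnover genes changed from 3 to 5, and gave Ctnna1 an adjusted p of 0.0505. Of 403 refits of 29 named partner genes, 17 lost the call, in 4 genes, and none reversed. Scaling by median of ratios moved the median of all rows by 0.03 and by upper quartile by -0.06 on the log2 scale. The depth limits Cdh1 and Cdh5, at about 0 to 5.6 fragments a library.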
